A study of Anthurium andraeanum with 18 samples.

Results

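STAY-GREEN (SGR) and chlorophyllase 1 (CLH1) are 2 enzymes of chlorophyll removal, followed here in leaves of Anthurium andraeanum under stepwise cooling. They are transcript groups TRINITY_DN38584_c0_g5 (SGR) and TRINITY_DN46675_c1_g2 (CLH1), 2 of the 132108 groups of a transcript table with Trinity assembly identifiers, and other groups are named below without the prefix. Both were taken by identifier and had been chosen by their levels in these same 18 libraries, so their levels and differences are given as descriptions, without tests. RNA from leaves of full-flowering plants of the cultivars Oregon and Fantasy love was sequenced in 18 libraries, 3 for each cultivar at 25, 6 and 4 °C. All plants had 12 h of light a day. Control plants stayed at 25 °C. Cold plants were kept for 3 days at 15 °C, moved to 6 °C for 3 days, when the 6 °C leaves were taken, and moved to 4 °C for 3 days, when the 4 °C leaves were taken. Temperature and time in the cold therefore cannot be told apart. The time label of the control libraries reads 0 days, while the Oregon control titles give 3 days. Every library title carries the mark biol rep with a number, which presents the repeats as biological. Nothing in the labels ties a library to a plant or to one of the repeated experiments they mention. The p-values therefore reflect only how far these libraries differ, and whether that spread is one between separate plants is not known.

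Chlorophyll is dismantled in the plastid in a fixed series of steps. Chlorophyll b is first reduced to chlorophyll a by NYC1, NOL and HCAR. SGR is the magnesium dechelatase that pulls the central magnesium out of chlorophyll a and so commits it to breakdown. PPH then removes the phytol tail, PAO opens the ring, RCCR reduces the red product, and TIC55 and CYP89A9 modify the colourless or yellowish end products. Mutants without SGR stay green in senescing leaves, hence the name. Chlorophyllases also cut phytol from chlorophyll. In Arabidopsis they are not needed for breakdown in senescing leaves and act on chlorophyll released from damaged cells.

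Both names were checked against the annotation. SGR is 1562 bases long with 5 isoforms and matched the rice STAY-GREEN protein. CLH1 is 1708 bases long with 19 isoforms and matched Arabidopsis chlorophyllase 1. Total estimated counts ran from 14769909 to 21911024 per library, and both members passed the filter on low counts. The 26 mesophyll marker groups were all detected, with a summed level of 112307 to 142724 TPM (a level per transcript length, scaled to a fixed total) at 25 °C in Oregon and 119563 to 138804 in Fantasy love. In the cold the same sum was 8033 to 20492 TPM. The 22 guard cell groups summed to 109 to 173 TPM over all libraries and the 1 flower organ group, AP1, to 5.82 to 19.6. The 2 phloem groups summed to 0.87 to 17.1 TPM and the 10 xylem groups to 66.4 to 145. The 3 root groups were higher in cold Oregon, at 83.8 to 111 TPM at 25 °C, 152 to 187 at 6 °C and 119 to 134 at 4 °C, and in Fantasy love summed to 67.2 to 81.1, 82.5 to 212 and 176 to 211. The part of these in the results was not tested. One library stood apart. Replicate 2 of Fantasy love at 6 °C had the fewest transcript groups detected, 59649 against 66064 to 98534 in the other 17. On the first principal component it lay at -45.8, between the controls, at -320.4 to -266.0, and the other cold libraries, at 67.2 to 212.0.

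SGR was nearly silent at 25 °C and among the most abundant leaf transcripts in cold Oregon. In Oregon at 25 °C its level was 0.36, 0.19 and 1.26 TPM in replicates 1 to 3, from 10, 7 and 37 counts. At 6 °C the 3 Oregon libraries held 746, 819 and 520 TPM, and at 4 °C they held 279, 300 and 162 TPM. All cold Oregon libraries lay above all controls, and the 6 °C and 4 °C libraries did not overlap. The mean at 6 °C, 695 ± 156 TPM (SD, n = 3), ranked SGR 136th of all transcript groups, compared with rank 53150 at 25 °C and rank 473 at 4 °C.

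In Fantasy love the gene was also higher in the cold, but at a lower level than in Oregon. Its control libraries held 0.79, 2.79 and 1.87 TPM. At 6 °C the libraries held 58.0, 12.4 and 241 TPM, a 19.4-fold spread among replicates that was the widest of any cold group for either gene. At 4 °C they held 85.5, 109 and 125 TPM. Each of these 6 cold libraries exceeded every control, while the 6 °C and 4 °C ranges overlapped. Replicate 2, the library that stood apart, had the lowest SGR of the cold libraries, and replicate 3 the highest of Fantasy love.

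On counts scaled to library size (CPM, with TMM factors), the log2 fold change of SGR against 25 °C was 9.69 ± 0.97 (SE) at 6 °C and 8.22 ± 0.92 at 4 °C in Oregon. In Fantasy love it was 5.49 ± 0.80 at 6 °C and 5.32 ± 0.79 at 4 °C. Without replicate 2 of Fantasy love at 6 °C the 6 °C value was 5.96, and without replicate 3 it was 3.78. The step from 6 to 4 °C gave SGR a difference of -1.47 ± 0.66 in Oregon and -0.17 ± 0.65 in Fantasy love, where it was 1.45 without replicate 3 at 6 °C. The response of Fantasy love minus that of Oregon was -4.21 ± 1.03 at 6 °C (-5.92 without replicate 3 of Fantasy love at 6 °C) and -2.90 ± 1.02 at 4 °C (-4.03 without replicate 3 of Oregon at 25 °C). In the controls Fantasy love stood 1.55 ± 0.77 above Oregon with overlapping libraries, or 2.62 without replicate 3 of Oregon. In bulk leaf RNA, more RNA per cell and more cells that express a gene cannot be told apart. The median of all tested genes was itself 0.30 to 0.39 above 0 in these 4 cold comparisons, and all fold changes here are to be read against that shift.

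CLH1 ran the other way. At 25 °C it was steady in each cultivar, at 35.3, 33.9 and 35.8 TPM in Oregon and at 74.8, 71.6 and 69.4 TPM in Fantasy love. The cultivars did not overlap, with Fantasy love 2.06-fold higher on the mean. In Oregon the level was 2.68, 2.41 and 5.78 TPM at 6 °C and 2.66, 4.68 and 3.15 TPM at 4 °C. These 2 cold groups overlapped, and both lay far below the controls.

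In Fantasy love CLH1 was lower at each step. At 6 °C its libraries held 15.7, 16 and 16 TPM, and at 4 °C they held 5.97, 2.07 and 2.48 TPM. The close match at 6 °C belongs to the TPM scale, since the same libraries gave 20.9, 33.4 and 27.7 CPM. No library of any of the 3 temperatures overlapped another temperature in this cultivar. Replicate 2 at 6 °C, the lowest in SGR, was the highest of its group in CLH1 on both scales.

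The log2 fold change of CLH1 against 25 °C was -3.67 ± 0.33 at 6 °C and -3.78 ± 0.33 at 4 °C in Oregon. Fantasy love had -2.46 ± 0.31 at 6 °C and -5.16 ± 0.35 at 4 °C. The additional step from 6 to 4 °C was -2.69 ± 0.32 in Fantasy love and -0.11 ± 0.31 in Oregon. The cultivar difference in response was 1.21 ± 0.42 at 6 °C and -1.37 ± 0.43 at 4 °C, so Fantasy love had the smaller drop at the first temperature and the larger at the second. At 4 °C the cultivars reached levels that overlapped, 3.50 ± 1.05 TPM in Oregon and 3.51 ± 2.14 TPM in Fantasy love.

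**Figure D1:**
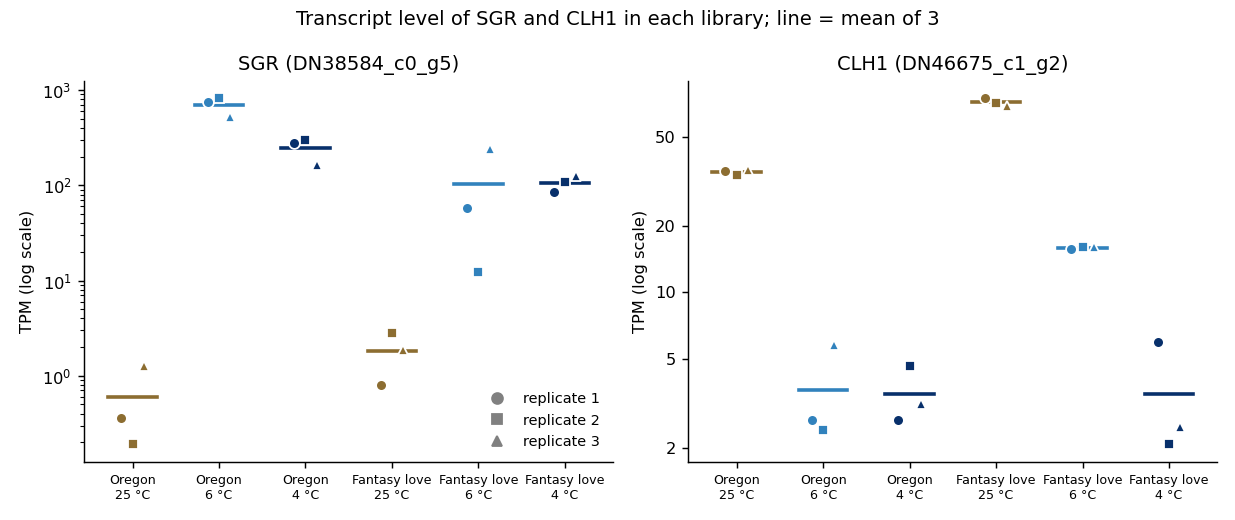
Level of SGR (left) and CLH1 (right) in TPM on a log axis, with 1 point per library and a line at the mean of 3. SGR is highest in Oregon at 6 °C (mean 695 TPM) and lowest in the 25 °C groups, while CLH1 is highest in Fantasy love at 25 °C (mean 71.9 TPM) and lowest at 4 °C.

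Ordered by mean TPM, SGR ran from Oregon at 6 °C to Oregon at 4 °C (247), Fantasy love at 4 °C (107), Fantasy love at 6 °C (104), Fantasy love at 25 °C (1.82) and Oregon at 25 °C (0.603). Fantasy love at 4 and 6 °C overlapped, and so did the 2 control groups. The order of CLH1 was Fantasy love at 25 °C (71.9), Oregon at 25 °C (35.0), Fantasy love at 6 °C (15.9), Oregon at 6 °C (3.62), Fantasy love at 4 °C (3.51) and Oregon at 4 °C (3.50). Its last 3 groups overlapped, and its other neighbours did not.

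Set against each other per length, the 2 transcripts exchanged places. At 25 °C CLH1 exceeded SGR in all 6 libraries, by 25.7-fold to 179-fold. In cold Oregon SGR exceeded CLH1 by 90.0-fold to 340-fold at 6 °C and by 51.6-fold to 105-fold at 4 °C. In Fantasy love at 6 °C the ratio of SGR to CLH1 was 3.69, 0.778 and 15.1, so replicate 2 alone still had more CLH1 than SGR. At 4 °C it was 14.3, 52.7 and 50.4.

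**Figure D2:**
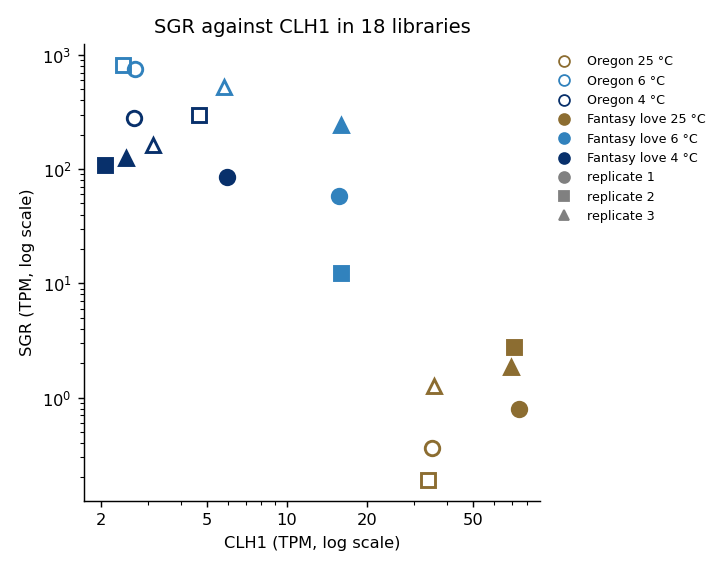
SGR against CLH1 in the 18 libraries, both in TPM on log axes, open symbols for Oregon and filled for Fantasy love, with the replicate number as the shape. The controls sit at lower right, cold Oregon at upper left, and the 3 Fantasy love libraries at 6 °C form a column at about the same CLH1 level with SGR from 12.4 to 241 TPM.

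The SGR family held 1 other group, SGRL (STAY-GREEN-LIKE, DN55114_c3_g1), a relative that in Arabidopsis acts on chlorophyll intermediates and is expressed in green leaves before senescence. SGRL fell in all 4 cold comparisons, the opposite of its relative. Its level was 41.3, 45.6 and 35.5 CPM in Oregon at 25 °C and 0.608, 0.793 and 0.143 CPM at 6 °C. In Fantasy love it was 17.7, 16 and 11.4 CPM at 25 °C and 0.0472, 0.0533 and 0.166 CPM at 4 °C, where only 6 counts were left in the 3 libraries together. The log2 fold changes at 6 and 4 °C were -6.32 ± 0.57 and -6.27 ± 0.56 in Oregon (adjusted p = 1.15e-07 and 1.17e-07, edgeR quasi-likelihood test with Benjamini-Hochberg adjustment over all genes, as in every test below). In Fantasy love they were -4.22 ± 0.52 and -7.24 ± 0.65 (adjusted p = 4.92e-06 and 8.31e-08). SGR made up 1.04 to 14.2% of the summed SGR and SGRL level in TPM in the 6 control libraries and at least 99.0% in each cold library. At 25 °C SGRL differed between the cultivars by -1.44 ± 0.44 (Fantasy love minus Oregon, adjusted p = 0.0272) in CPM, but in TPM the means ran the other way, 16.1 ± 2.84 in Oregon and 19 ± 7.67 in Fantasy love.

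Besides the CLH1 member, 4 chlorophyllase groups were measured, 3 of them from 1 assembly component, so that reads may be shared among them. Genes counted as rising or falling had an adjusted p under 0.05 and at least a 2-fold change. In Oregon 3 of the 4 fell at 6 °C and 3 at 4 °C, and none rose. In Fantasy love 1 fell at 6 °C, and at 4 °C 3 fell and 1 rose. Of all 51670 tested genes, 48.4% were called in Oregon at 6 °C (28.3% rose and 20.1% fell) and 49% at 4 °C (28.4% rose and 20.6% fell). In Fantasy love 40.4% were called at 6 °C (23.8% rose and 16.6% fell) and 50% at 4 °C (28.5% rose and 21.6% fell). A share of a short list near those values is no result about the list.

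The most abundant chlorophyllase at 25 °C was not the CLH1 member but a CLH2-like group, DN41893_c0_g2, at 108 ± 44.5 TPM in Oregon and 221 ± 69.8 TPM in Fantasy love. It held 54.2 to 74.5% of the summed chlorophyllase level in the controls, and CLH1 held 15.9 to 31%. Its libraries read 205, 409 and 207 CPM in Oregon at 25 °C and 359, 596 and 710 CPM in Fantasy love at 25 °C. Its log2 fold changes were -6.31, -7.6 and -6.46 in Oregon at 6 °C, Oregon at 4 °C and Fantasy love at 6 °C (adjusted p = 0.000108, 3.33e-05 and 0.000125), and -11.38 in Fantasy love at 4 °C (adjusted p = 3.04e-06). At 6 °C the Fantasy love libraries gave 0.169, 18.5 and 0.44 CPM, with replicate 2 again apart, here on the side of the controls.

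The summed chlorophyllase level was accordingly lower in the cold. It was 147 to 214 TPM in Oregon at 25 °C, 13.4 to 16.9 at 6 °C and 14.1 to 27.4 at 4 °C. In Fantasy love it was 241 to 381 TPM at 25 °C, 44.8 to 65.2 at 6 °C and 27.8 to 40.6 at 4 °C. No cold library reached a control library of its cultivar.

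The exception among the chlorophyllases was DN41893_c0_g4, a second group with the CLH1 name. In Oregon it fell at 6 °C (-1.27 ± 0.45, adjusted p = 0.0249) and at 4 °C (-2.14 ± 0.47, adjusted p = 0.001). In Fantasy love it read 2.71, 7.01 and 9.64 CPM at 25 °C, 4.56, 4.67 and 5.50 CPM at 6 °C and 17.3, 16.2 and 14.9 CPM at 4 °C, a rise of 1.32 ± 0.43 at 4 °C (adjusted p = 0.0156). The cultivar difference in response at 4 °C was 3.46 ± 0.64 (adjusted p = 0.00221), where 8.89% of all genes had a called difference. The rise in Fantasy love lost its call without replicate 1 at 25 °C (0.88) or without replicate 1 at 4 °C (1.17), and the fall in Oregon at 6 °C lost it with upper quartile factors (-1.02) or without any of 3 libraries. The remaining CLH1-like group, DN41893_c0_g6, had 103 counts in Fantasy love at 25 °C and 141 at 6 °C but 2 counts at 4 °C, and fell in Oregon at 4 °C (-2.19 ± 0.71, adjusted p = 0.0152), a call lost without replicate 3 at 25 °C or replicate 3 at 4 °C (adjusted p = 0.0506 and 0.0622). The second CLH2 group, DN54755_c2_g4, fell in Oregon at 6 °C (-2.43 ± 0.48, adjusted p = 0.000442) but at 4 °C its value was -0.63 ± 0.46 (adjusted p = 0.252). Its fall in Fantasy love at 4 °C (-1.35 ± 0.46, adjusted p = 0.0196) lost its call with upper quartile factors (-0.97), with quantile normalisation (adjusted p = 0.0575) and without replicate 2 or 3 at 4 °C (adjusted p = 0.0719 and 0.0715).

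**Figure D3:**
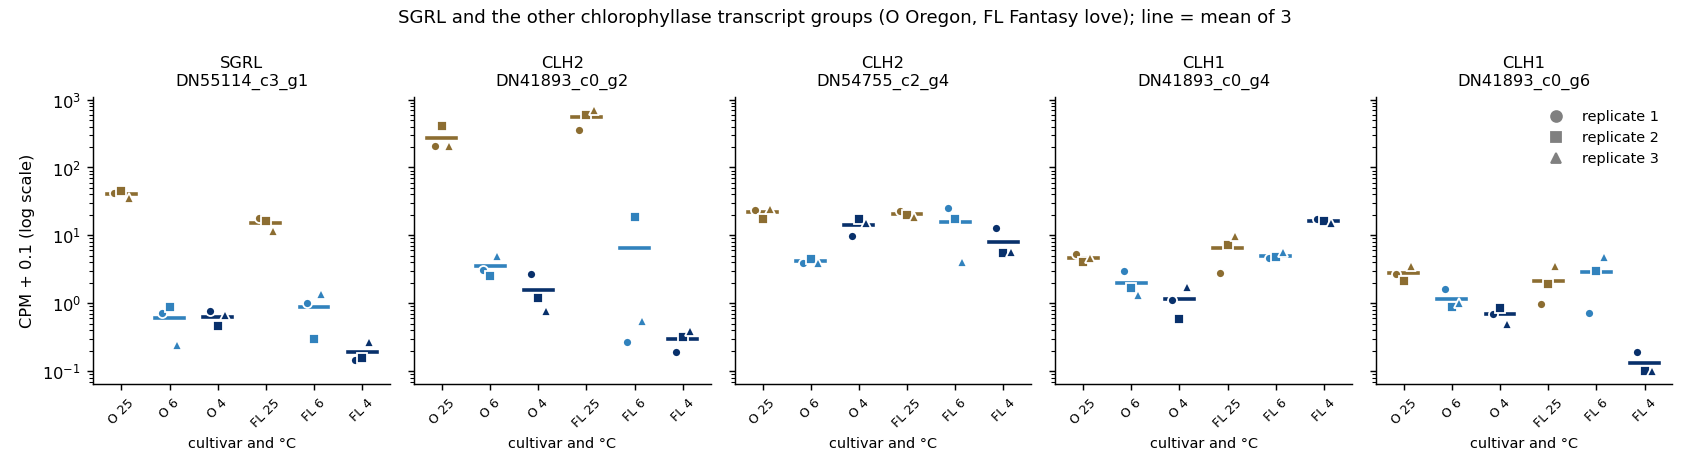
Level of SGRL and the 4 other chlorophyllase groups in CPM plus 0.1, on a log axis, with 1 point per library and a line at the mean of 3. SGRL and the abundant CLH2 group lie far lower in all cold groups, while the CLH1-like group DN41893_c0_g4 is highest in Fantasy love at 4 °C (16.1 CPM on the mean).

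The other enzymes of the pathway were covered by 24 tested groups. In Oregon 8 rose and 9 fell at 6 °C, and 6 rose and 8 fell at 4 °C. In Fantasy love 2 rose and 7 fell at 6 °C, and 4 rose and 9 fell at 4 °C. Without replicate 2 of Fantasy love at 6 °C, that comparison had 4 that rose and 10 that fell. The median log2 fold change of the 24 was -0.01, 0.45, -0.45 and -0.38 in those 4 comparisons, beside 0.36, 0.39, 0.30 and 0.39 over all genes. With upper quartile factors the split was 9 and 7 in Oregon at 4 °C and 4 and 7 in Fantasy love at 6 °C. In Oregon 17 of the 24 were called at 6 °C and 14 at 4 °C, against 48.4% and 49% of all genes. In Fantasy love 9 were called at 6 °C and 13 at 4 °C, against 40.4% and 50%. The shares of all genes that rose and fell are those given above. These counts describe the list without a test of it.

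Between 6 and 4 °C, 1 of the 24 rose and none fell in Oregon, where 2.23% of all genes were called (0.910% rose and 1.32% fell), and none rose and 2 fell in Fantasy love (9.02% of all genes, 1.83% up and 7.19% down). The Oregon rise, TIC55 DN42568_c0_g4, lost its call in 4 fits that left out a library. The falls, CYP89A9 DN49840_c1_g10 and DN52961_c0_g3, lost theirs without replicate 2 of Fantasy love at 6 °C (adjusted p = 0.0819 and 0.0511) and with only the compared groups in the fit (adjusted p = 0.203 and 0.135). Fantasy love stood above Oregon in 9 groups and below in 2 at 25 °C (15.4% of all genes, 8.35% above and 7.05% below). The counts were 8 and 4 at 6 °C (23.4%, 12.1% above and 11.3% below) and 4 and 3 at 4 °C (19.2%, 8.95% above and 10.2% below). The response differed between the cultivars in 7 groups at 6 °C, 3 of them higher in Fantasy love (9.04% of all genes, 5.06% higher and 3.97% lower). At 4 °C it differed in 4 groups, all lower in Fantasy love (8.89%, 3.86% higher and 5.04% lower).

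Upstream of SGR, NYC1 is the membrane-bound chlorophyll b reductase and NOL its partner. All 4 NYC1 groups rose in Oregon at 6 °C and 2 at 4 °C, where 28.3% and 28.4% of all genes rose. None was called in Fantasy love at either temperature, where 40.4% and 50% of all genes were called. DN46578_c1_g2 and DN46578_c1_g4 come from the same assembly component, and NYC1 DN57213_c1_g2 shares its component with NOL DN57213_c1_g1. Reads may therefore be shared among them. The rise of DN46578_c1_g4 at 6 °C lost its call without filtering (adjusted p = 0.082) and in 5 of 6 fits that left out a library. That of DN57213_c1_g2 lost it without replicate 2 at 25 °C (adjusted p = 0.0544), and that of DN46578_c1_g2 at 4 °C without replicate 1 at 25 °C (adjusted p = 0.0779). The most abundant, DN47887_c4_g2, read 27.8, 52.2 and 38.0 CPM in Oregon at 25 °C, 175, 259 and 178 CPM at 6 °C and 123, 85.5 and 102 CPM at 4 °C. The Fantasy love libraries gave 129, 113 and 113 CPM at 25 °C, 119, 30.9 and 135 CPM at 6 °C and 105, 143 and 147 CPM at 4 °C. Its log2 fold changes in Oregon were 2.37 ± 0.39 and 1.39 ± 0.37 (adjusted p = 6.48e-05 and 0.00468). In Fantasy love they were -0.32 ± 0.37 and 0.15 ± 0.37 (adjusted p = 0.496 and 0.751). The Fantasy love controls already stood 1.59 ± 0.38 above those of Oregon (adjusted p = 0.00616), and the cultivar difference in response at 6 °C was -2.70 ± 0.53 (adjusted p = 0.00407). A second group, DN46578_c1_g2, differed at 6 °C by -2.61 ± 0.50 (adjusted p = 0.00366). None of the 3 NOL groups was called in any cold comparison, with log2 fold changes between -0.59 and 0.63.

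HCAR completes the conversion of chlorophyll b, and it fell in Fantasy love. DN47094_c1_g1 read 235, 219 and 221 CPM in Fantasy love at 25 °C, 66.8, 70.8 and 69.4 CPM at 6 °C and 66.2, 73.1 and 69.1 CPM at 4 °C, a fall of 1.70 at 6 °C (adjusted p = 1.97e-07) and 1.69 at 4 °C (adjusted p = 1.09e-07). In Oregon the values were -0.72 ± 0.15 at 6 °C (adjusted p = 0.000753, under the 2-fold minimum) and 0.06 ± 0.15 at 4 °C (adjusted p = 0.755). In TPM the Oregon means were 58.9 at 25 °C and 75.3 at 6 °C, the opposite sign. At 4 °C the Oregon mean was 123 ± 8.79 TPM, above the controls, where the CPM value was 0.06. The TPM means of Fantasy love were 68.1, 35.7 and 50.3 at 25, 6 and 4 °C. The cultivars differed in response at 4 °C by -1.76 ± 0.21 (adjusted p = 8.48e-05).

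PPH, the pheophytinase that takes the product of SGR, had 2 groups that rose in each of the 4 cold comparisons and 1 other group that differed. DN56595_c4_g1 read 23.2, 22.0 and 23.1 CPM in Oregon at 25 °C, 206, 190 and 151 CPM at 6 °C and 126, 108 and 103 CPM at 4 °C. Those of Fantasy love gave 29.4, 18 and 25 CPM at 25 °C, 82.6, 35.6 and 116 CPM at 6 °C and 95.2, 131 and 129 CPM at 4 °C. In neither cultivar did a cold library overlap the controls. The log2 fold changes were 3.00 ± 0.32 and 2.30 ± 0.31 in Oregon (adjusted p = 7.77e-07 and 1.03e-05) and 1.69 ± 0.31 and 2.29 ± 0.31 in Fantasy love (adjusted p = 0.000261 and 9.81e-06).

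The second PPH group, DN57438_c4_g3, rose by 3.45 ± 0.33 at 6 °C and 2.75 ± 0.32 at 4 °C in Oregon (adjusted p = 2.12e-07 and 1.84e-06). In Fantasy love it rose by 1.27 ± 0.30 and 1.98 ± 0.31 (adjusted p = 0.00245 and 3.92e-05), with the 6 °C call lost without replicate 3 (0.85). Its cultivar difference at 6 °C was -2.18 ± 0.43 (adjusted p = 0.00408). The third group, DN33015_c2_g4, was the highest of the 3 per length in Fantasy love controls, at 40.3 ± 6.64 TPM, and the lowest in Oregon controls, at 11 ± 0.698 TPM. It rose in Oregon at 4 °C (1.22 ± 0.33, adjusted p = 0.00517) and fell in Fantasy love at 6 °C (-1.49 ± 0.33, adjusted p = 0.00158, or 0.0557 with only the compared groups in the fit).

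Downstream, PAO, the ring-opening oxygenase DN51825_c1_g2, was called in no cold comparison. It read 108, 98.6 and 101 CPM in Oregon at 25 °C and 157, 157 and 145 CPM at 6 °C, a change of 0.58 ± 0.20 (adjusted p = 0.0199, under the 2-fold minimum), with 0.10 ± 0.20 at 4 °C. In Fantasy love PAO changed by 0.26 ± 0.20 at 6 °C (adjusted p = 0.295). At 4 °C it changed by 0.55 ± 0.20 (adjusted p = 0.0242), likewise under the 2-fold minimum. RCCR, DN50520_c0_g1, fell in 3 comparisons. It read 197, 173 and 185 CPM in Oregon at 25 °C and 84.0, 78.4 and 87.0 CPM at 6 °C (-1.15 ± 0.18, adjusted p = 4.35e-05, or -0.91 with upper quartile factors). It fell in Fantasy love by 1.66 at 6 °C (adjusted p = 1.54e-06) and by 1.96 at 4 °C (adjusted p = 1.52e-07). The cultivars differed in response at 4 °C by -1.36 ± 0.25 (adjusted p = 0.00232).

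The last steps were mixed. Of the 4 TIC55 groups, DN42568_c0_g1 and DN36902_c0_g1 rose in Oregon at 6 °C (1.84 ± 0.39 and 1.46 ± 0.40, adjusted p = 0.000696 and 0.00511) and in Fantasy love at 4 °C (1.31 ± 0.38 and 1.43 ± 0.39, adjusted p = 0.00739 and 0.00484). DN42568_c0_g4 and DN56176_c1_g2 fell in all 4 cold comparisons, by 4.90 and 3.61 in Oregon at 6 °C (adjusted p = 2.24e-06 and 8.97e-05). DN42568_c0_g1 and DN42568_c0_g4 come from the same assembly component, so reads may be shared between them. The fall of DN56176_c1_g2 in Oregon at 4 °C (-1.45, adjusted p = 0.031) lost its call with upper quartile factors (-1.12, adjusted p = 0.0898) and in 5 fits that left out a library. Of the 7 CYP89A9 groups, 6 fell in Oregon at 6 °C and 6 at 4 °C, and 2 and 5 fell in Fantasy love. The 2 at 6 °C in Fantasy love, DN34039_c1_g6 and DN34427_c0_g1, lost their calls with only the compared groups in the fit (adjusted p = 0.0502 and 0.0608). The name covers a P450 of a large family, and by far the most abundant of the 7, DN52961_c0_g2, did not fall in Oregon. It read 120, 102 and 108 CPM in Oregon at 25 °C and 373, 299 and 332 CPM at 4 °C, a rise of 1.6 ± 0.18 (adjusted p = 1.61e-06), and in Fantasy love at 4 °C its value was -0.29 ± 0.18 (adjusted p = 0.177). Reads may be shared between DN52961_c0_g2 and DN52961_c0_g3, which come from the same assembly component. A further group, DN32532_c1_g8, had 447 counts in Oregon at 25 °C, 1 count at 6 °C, 0 at 4 °C and 0 in the 9 Fantasy love libraries.

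**Figure D4:**
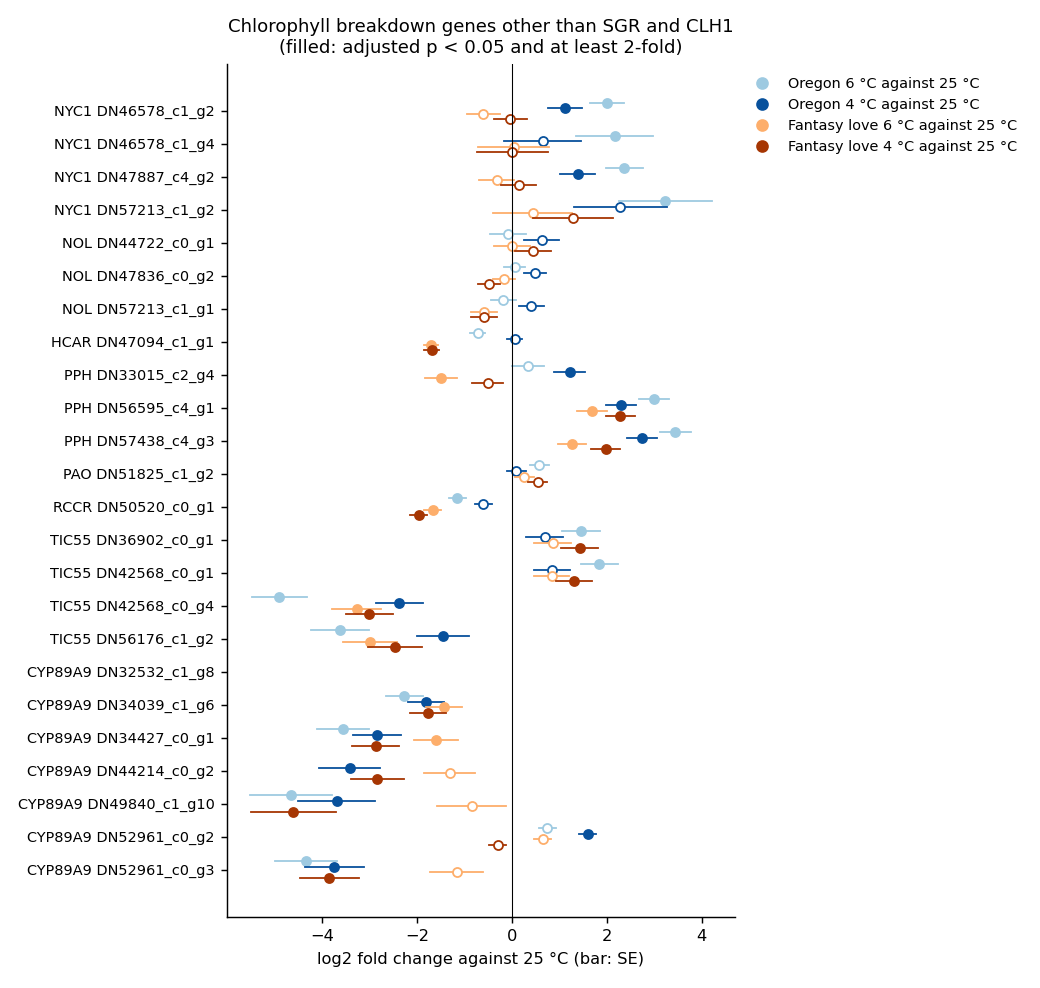
The log2 fold change with its SE of the 24 breakdown groups other than SGR and CLH1, in 4 cold comparisons, filled where called. Comparisons with a group of 3 counts or fewer are left out, which empties the line of CYP89A9 DN32532_c1_g8. The NYC1 groups are filled on the right for Oregon only, 2 PPH groups for all comparisons, and HCAR on the left for Fantasy love only.

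Seen library by library, the Fantasy love leaves at 6 °C varied in several enzymes besides SGR. Summed over its groups, NYC1 read 174, 50.1 and 200 CPM in replicates 1 to 3, PPH 235, 87.3 and 257 CPM, and TIC55 223, 66.6 and 302 CPM. SGR itself read 73.2, 26.6 and 375 CPM. Replicate 2 was thus lowest in all 4. For PAO it was the highest, with 70.1, 111 and 69.5 CPM, and HCAR barely varied, with 66.8, 70.8 and 69.4 CPM. The antenna protein genes, the chlorophyll a-b binding proteins, took 0.102, 0.364 and 0.207% of the CPM in those libraries, beside 5.92 to 7.03% in the Fantasy love controls. The part of that library's state in the SGR values was not tested.

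**Figure D5:**
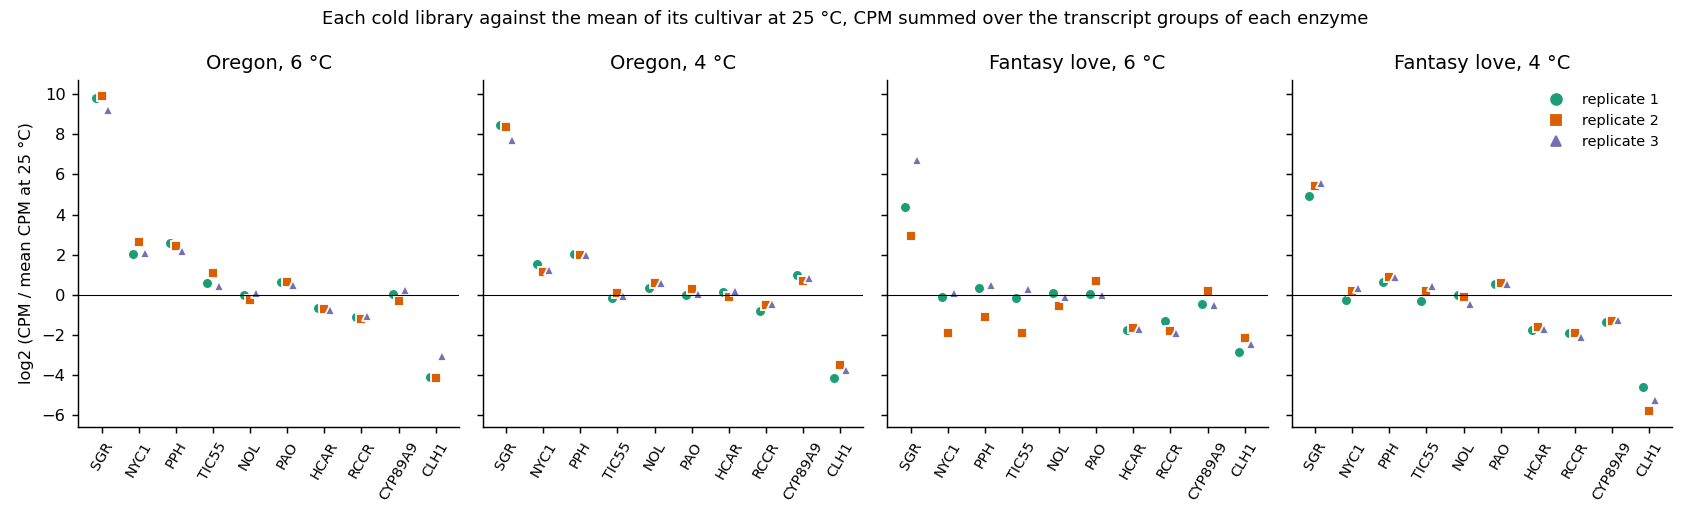
Each cold library divided by the mean of its cultivar at 25 °C, as log2 of CPM summed over the transcript groups of each enzyme, with 1 point per library. SGR lies above and CLH1 below all other enzymes in every panel, and replicate 2 of Fantasy love at 6 °C is low in SGR, NYC1, PPH and TIC55 together.

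Factors known from Arabidopsis to act on SGR or on leaf yellowing gave 23 tested groups. In Oregon 8 rose and 4 fell at 6 °C, and 8 rose and 6 fell at 4 °C. In Fantasy love 5 rose and 4 fell at 6 °C, and 4 rose and 5 fell at 4 °C. Of all genes, 48.4% and 49% were called in Oregon at 6 and 4 °C, and 40.4% and 50% in Fantasy love. The counts describe the list without a test of it. With only the compared groups in the fit, the 6 °C count in Fantasy love was 3. The most abundant, EIN3 (DN55399_c1_g3), an ethylene signalling factor, read 223 ± 11.8 CPM in Oregon at 25 °C and 428 ± 61.8 CPM at 6 °C, a change of 0.94 ± 0.19 (adjusted p = 0.000595, under the 2-fold minimum). In Fantasy love at 6 °C it was 0.66 ± 0.19 (adjusted p = 0.0105).

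A second EIN3 group, DN42535_c0_g1, rose in Oregon at both temperatures (1.70 ± 0.27 and 1.05 ± 0.26, adjusted p = 4.39e-05 and 0.00275). In Fantasy love it was 0.69 ± 0.26 and 0.86 ± 0.26, under the 2-fold minimum. The age-related factor NAC029 had 3 groups, of which DN50027_c1_g2 rose in all 4 comparisons, by 2.29 ± 0.49 and 2.04 ± 0.49 in Oregon and by 1.45 ± 0.48 and 1.48 ± 0.48 in Fantasy love (adjusted p = 0.000851, 0.00203, 0.0193 and 0.0136). Another, DN36787_c1_g3, had 2 counts in Fantasy love at 25 °C and 332 at 6 °C, with 0.62 ± 0.74 in Oregon at 6 °C (adjusted p = 0.495). The third, DN53939_c0_g2, fell in Oregon at 4 °C (-2.52 ± 0.23, adjusted p = 1.16e-07) and rose in Fantasy love at 6 °C (1.07 ± 0.21, adjusted p = 0.000613). In Oregon at 6 °C and Fantasy love at 4 °C it was 0.72 ± 0.21 and 0.83 ± 0.21, under the 2-fold minimum. Its difference in response at 4 °C was 3.35 ± 0.31 (adjusted p = 1.11e-05). The MYC2 groups were split. Among them DN37011_c0_g10 rose in all 4 comparisons, from 0 counts in Oregon at 25 °C, and DN39821_c0_g2 fell in all 4, to 0 counts. NAC019 groups DN45496_c1_g1 and DN43805_c1_g2 rose in Oregon at 6 and 4 °C, and the former also in Fantasy love at 6 °C. DN42535_c0_g1, the 3 NAC029 groups and these MYC2 and NAC019 groups were named after their values were seen.

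Among the falls were GLK1 and PIF4. GLK1 (DN40738_c0_g2), which promotes chloroplast genes, fell in all 4 comparisons, with log2 fold changes of -3.82 and -5.97 in Oregon at 6 and 4 °C (adjusted p = 6.69e-05 and 2.03e-06) and of -2.12 and -5.57 in Fantasy love (adjusted p = 0.0064 and 3.04e-06). At 6 °C its Fantasy love libraries read 7.82, 87.2 and 12.4 CPM, with replicate 2 nearest the controls (156 ± 36.8). It too was named after its values were seen. PIF4, a light-regulated factor that promotes SGR in darkened Arabidopsis leaves, had 2 groups, and both fell in all 4 comparisons. DN48427_c0_g1 was 210 ± 5.32 CPM in Oregon at 25 °C and 31.5 ± 5.78 at 4 °C (-2.73 ± 0.23, adjusted p = 6.8e-08), and 191 ± 38.5 and 40.3 ± 5.30 CPM in Fantasy love (-2.25 ± 0.23, adjusted p = 3.71e-07).

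The other PIF4 group, DN48427_c0_g2, fell further in Oregon than in Fantasy love at 6 °C. It was 80.4 ± 10.3 CPM in Oregon at 25 °C and 1.72 ± 0.0679 at 6 °C, and 44.2 ± 6.80 and 14.6 ± 15.1 CPM in Fantasy love. The difference in response was 3.94 ± 0.73 at 6 °C (adjusted p = 0.00273). Its fall in Fantasy love at 6 °C (-1.6, adjusted p = 0.0141) lost its call with only the compared groups in the fit (adjusted p = 0.12) and without replicate 1 at 6 °C (adjusted p = 0.0645).

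The phytol released by PPH or chlorophyllase can be rescued for tocopherol or stored as an ester, and 7 groups of that pathway were tested. In Oregon none rose and 2 fell at 6 °C, and 1 rose and 1 fell at 4 °C. In Fantasy love 1 rose and 4 fell at 6 °C, and none rose and 3 fell at 4 °C. Without replicate 2 of Fantasy love at 6 °C none rose and 3 fell there, and with only the compared groups 1 rose and 2 fell. Over all genes the called shares were 48.4% and 49% in Oregon and 40.4% and 50% in Fantasy love. HPT1 (DN36007_c1_g2), which joins phytol to the tocopherol head group, fell in all 4, from 213 ± 27.9 to 71.8 ± 22.5 CPM in Oregon at 6 °C (-1.56 ± 0.23, adjusted p = 2.81e-05). In Fantasy love at 4 °C it was down to 34.9 ± 7.92 CPM from 218 ± 27.3 (-2.64 ± 0.24, adjusted p = 1.22e-07). A probable phytol kinase, Os04g0670700 (DN54026_c2_g1), fell in 3 comparisons, by 1.44 in Fantasy love at 4 °C (adjusted p = 8.47e-06). Its fall in Oregon at 6 °C (-1.13) was under the 2-fold minimum with upper quartile factors (-0.88) or quantile normalisation (-0.96). The rise in Fantasy love at 6 °C was Os01g0832000 (DN35103_c0_g1), at 1.11 ± 0.24 (adjusted p = 0.00105), a call lost without replicate 2 of that group. In Oregon it was -0.50 ± 0.23 at 6 °C and -0.83 ± 0.23 at 4 °C, neither called. Os01g0832000 was named after its values were seen.

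The phytyl ester synthase-like group At1g54570 (DN48623_c2_g2) rose in Oregon at 4 °C. It read 8.54 ± 1.19 CPM in Oregon at 25 °C and 34.1 ± 6.14 at 4 °C, a rise of 2.0 ± 0.30 (adjusted p = 2.78e-05). In Fantasy love it read 106 ± 7.43 CPM at 25 °C and 67.5 ± 6.79 at 4 °C (-0.65 ± 0.28, adjusted p = 0.0582). At 6 °C the value was 0.50 ± 0.29 in Oregon (adjusted p = 0.154) and -1.28 ± 0.29 in Fantasy love (adjusted p = 0.00164), a fall that lost its call without replicate 2 (-1.0) and with only the compared groups (adjusted p = 0.0567). The difference in response at 4 °C was -2.65 ± 0.41 (adjusted p = 0.000577).

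General markers of leaf senescence gave 6 tested groups of 7. In Oregon 2 rose and 2 fell at each temperature, beside 48.4% and 49% of all genes called at 6 and 4 °C. In Fantasy love 3 rose and 2 fell at each, beside 40.4% and 50% of all genes. The count of 5 in Fantasy love at 4 °C became 3 (1 rose and 2 fell) without replicate 2 or 3 at 25 °C or replicate 1 or 3 at 4 °C. With only the compared groups in the fit it was 3 at each temperature. WRKY75 (DN52983_c0_g3), a promoter of senescence in Arabidopsis, read 0.283, 1.09 and 1.74 CPM in Oregon at 25 °C and 47.5, 65.9 and 29.3 CPM at 6 °C (5.50 ± 0.61, adjusted p = 1.22e-06). At 4 °C in Oregon it rose by 2.20 ± 0.56 (adjusted p = 0.00328), and in Fantasy love by 2.99 ± 0.57 and 4.12 ± 0.59 at 6 and 4 °C (adjusted p = 0.000417 and 1.52e-05).

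WRKY53 (DN41496_c1_g1), another such factor, rose in all 4 comparisons, most at 6 °C in Fantasy love, where its libraries read 86.9, 382 and 57.3 CPM (5.52 ± 0.86, adjusted p = 5.73e-05). Its rise at 4 °C in Fantasy love (1.97 ± 0.75, adjusted p = 0.033) lost its call in 5 of the 6 fits that left out a library. P85, a senescence and dehydration associated protein (DN52633_c0_g2), fell in all 4, from 4.73 ± 0.213 to 0.646 ± 0.238 CPM in Oregon at 6 °C (-2.87 ± 0.60, adjusted p = 0.000649). The senescence list was thus split, with regulators among the rises and P85 and a SAG39-like protease (DN52121_c0_g1, 513 counts in Oregon controls and 5 at 6 °C) among the falls. A second group with the name of that protease, DN44022_c1_g4, rose in Fantasy love at 6 °C (1.41 ± 0.48, adjusted p = 0.0223). It was called in no other cold comparison. At3g51250 (DN45936_c1_g8) rose in Fantasy love at 4 °C only (1.05 ± 0.41, adjusted p = 0.036). Both protease groups and At3g51250 were named after their values were seen.

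Neighbouring groups of the same assembly component share sequence with a member and may share reads. SGR has 6 such neighbours, of which 2 passed the filter and neither was called in a cold comparison. CLH1 has 4, of which 3 passed. DN46675_c1_g1, which has no protein name, fell with CLH1 in all 4 comparisons, from 17.1, 17.5 and 18.4 CPM in Oregon at 25 °C to 1.46, 0.906 and 0.715 at 6 °C (-4.11 ± 0.37, adjusted p = 1.18e-07). In Fantasy love it fell by 3.55 at 6 °C (adjusted p = 5.53e-07) and 3.70 at 4 °C (adjusted p = 1.93e-07). Of the other neighbours, DN46675_c1_g4 fell in Fantasy love at 6 °C (-1.59, adjusted p = 0.00883) and DN46675_c1_g5 rose in Oregon at 6 °C (1.75, adjusted p = 0.0341), a call lost without filtering (adjusted p = 0.108), with quantile normalisation (adjusted p = 0.192) and without any 1 of 5 libraries.

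The genes whose profiles lay nearest were sought among 12046 named candidates, as the root mean square difference of log2 CPM over the 18 libraries after centring each gene. For SGR they were CLT1, a chloroplast envelope transporter of thiols (0.924), the zinc finger factor ZAT5 (0.933), BIOF, an enzyme of biotin synthesis (0.976), the vesicle protein VAMP725 (0.989) and the zinc finger factor AZF1 (1.04). AZF1 read 2.13 ± 0.627, 352 ± 138 and 228 ± 31 CPM in Oregon at 25, 6 and 4 °C, and 1.70 ± 0.240, 97.2 ± 38.5 and 98.0 ± 36.0 CPM in Fantasy love. Like SGR it was higher in cold Oregon than in cold Fantasy love on the mean. Over the 9 Oregon libraries alone the nearest was the endochitinase EP3 (0.416), and over the 9 Fantasy love libraries the trehalose phosphate synthase TPS9 (0.431).

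For CLH1 the nearest were FAH1, a hydroxylase of sphingolipid fatty acids (0.487), the kinase PBL8 (0.529), TMN3, a membrane protein of the transmembrane 9 family (0.538), a C-glucosyltransferase CGT of flavonoids (0.552) and the glycosyltransferase UGT71K1 (0.556). FAH1 read 32.0 ± 5.54, 3.64 ± 0.307 and 2.47 ± 0.472 CPM in Oregon at 25, 6 and 4 °C, and 47.8 ± 11.3, 11.8 ± 5.13 and 1.24 ± 0.205 CPM in Fantasy love, and like CLH1 it was lower at 4 than at 6 °C in Fantasy love on the mean. These are likenesses of profile over libraries that share 2 cultivars and 3 temperatures. With Pearson's correlation in place of the distance, none of the 5 nearest genes over all 18 libraries was shared for either member. Over the 9 Fantasy love libraries 1 of 5 was shared for each member. Over the 9 Oregon libraries 1 was shared for CLH1 and none for SGR.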

How the data were processed

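For 18 leaf libraries the authors deposited 1 table of estimated counts and TPM per transcript group, per the file headers. The groups carry Trinity identifiers, the form that assembly without a genome gives. Of the count values, 4.21% had decimals, and they were rounded to whole numbers. How the deposited TPM values were computed is not given in the sources used here. They summed to 981488 to 994410 per library. The submitters' processing notes name cutadapt 1.9, a read trimmer. Strand and the handling of reads shared by similar groups are likewise not given, so near-identical groups are uncertain.

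Groups with at least 10 counts by edgeR's filterByExpr (15 in total) were kept, 51670 of 132108, and tested with edgeR 4.0.16 (TMM factors, quasi-likelihood test, Benjamini-Hochberg adjustment over all genes) in R 4.3.3. All 6 groups of 3 libraries shared 1 fit, without covariates, for 11 comparisons. CPM used TMM library sizes, and log CPM for profile likeness a prior count of 2. DESeq2 1.42.0 and limma 3.58.1 served alternatives. Levels of different genes are compared in TPM, and levels of 1 gene between groups in CPM where a test is given. The scales differ: the median gene was higher in TPM than in CPM by 0.28 and 0.29 (log2) in Oregon at 6 and 4 °C and by 0.18 and 0.44 in Fantasy love. The fit was tested on simulated data.

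The 2 members and all gene lists were chosen with earlier results of these data known. Genes named are every group of the SGR, chlorophyllase and breakdown lists and of the members' assembly components, and, of the other lists, the most abundant and the lowest adjusted p per cold comparison. The 5 most similar named genes, of at least 10 CPM in their highest group, complete the rule. Exceptions are stated.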

Additional observations from a re-analysis of the deposited data

Results flagged for a closer look

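Each value here is a difference between the cultivars in the response to cold, the log2 fold change of Fantasy love minus that of Oregon, that passed edgeR's quasi-likelihood test itself. Only genes named by the rule given above are listed, and other groups of the lists also had called differences. Among the 23 regulator groups 3 were called at 6 °C and 5 at 4 °C, NAC029 DN53939_c0_g2 at 4 °C being one of those left out. Among the 7 phytol groups 2 and 4 were called. Over all genes the shares were 9.04% and 8.89%. At 6 °C the response was lower in Fantasy love for NYC1 DN47887_c4_g2 (-2.70, adjusted p = 0.00407), NYC1 DN46578_c1_g2 (-2.61, adjusted p = 0.00366), PPH DN57438_c4_g3 (-2.18, adjusted p = 0.00408), PPH DN33015_c2_g4 (-1.83, adjusted p = 0.0198) and At1g54570 DN48623_c2_g2 (-1.78, adjusted p = 0.011). It was higher in Fantasy love for PIF4 DN48427_c0_g2 (3.94, adjusted p = 0.00273) and for CYP89A9 groups DN49840_c1_g10 (3.81, adjusted p = 0.0345), DN52961_c0_g3 (3.18, adjusted p = 0.0211) and DN44214_c0_g2 (4.56, adjusted p = 0.00924). The last rests on 2 counts in Oregon at 6 °C and its size depends on the prior count. DN49840_c1_g10 lost its call in 10 fits that left out a library, among them 2.17 without replicate 2 of Fantasy love at 6 °C (adjusted p = 0.119), and with quantile normalisation (adjusted p = 0.0548). DN52961_c0_g3 lost its call in 6 settings, and PPH DN33015_c2_g4 without replicate 3 of either cultivar at 25 °C (adjusted p = 0.0519 and 0.055).

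At 4 °C the response was lower in Fantasy love for At1g54570 DN48623_c2_g2 (-2.65, adjusted p = 0.000577), CYP89A9 DN52961_c0_g2 (-1.90, adjusted p = 0.000191), HCAR DN47094_c1_g1 (-1.76, adjusted p = 8.48e-05), PPH DN33015_c2_g4 (-1.73, adjusted p = 0.025), RCCR DN50520_c0_g1 (-1.36, adjusted p = 0.00232) and HPT1 DN36007_c1_g2 (-1.29, adjusted p = 0.0174). It was higher for CLH1 DN41893_c0_g4 (3.46, adjusted p = 0.00221) and PIF4 DN48427_c0_g2 (2.58, adjusted p = 0.0356). The PIF4 value ran from 2.22 to 2.63 in the 10 fits without 1 library in which its call was lost. PPH DN33015_c2_g4 lost its call in 6 such fits (adjusted p from 0.0514 to 0.0588), and HPT1 without replicate 1 of Oregon at 25 °C (adjusted p = 0.0544).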

How the results depend on the processing

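Leaving out 1 library at a time gave log2 fold changes of SGR from 9.23 to 10.74 in Oregon at 6 °C, 7.77 to 9.28 in Oregon at 4 °C and 3.78 to 5.96 in Fantasy love at 6 °C. For CLH1 it gave -4.13 to -3.52 in Oregon at 6 °C and -5.61 to -4.99 in Fantasy love at 4 °C. From deposited TPM with a pseudocount of 1, SGR was 8.76 and 7.27 in Oregon at 6 and 4 °C. With pseudocounts of 0.5 and 1, CLH1 was -3.10 and -2.96 in Oregon at 6 °C, -3.15 and -3.0 in Oregon at 4 °C, -2.14 and -2.11 in Fantasy love at 6 °C and -4.18 and -4.02 in Fantasy love at 4 °C. Upper quartile factors gave CLH1 -3.46 in Oregon at 4 °C. The 9 breakdown calls in Fantasy love at 6 °C ran from 8 without replicate 3 to 14 without replicate 2 of that group. The 7 calls for the cultivar difference at 6 °C ran from 4 without replicate 3 of Fantasy love at 25 °C to 12 without replicate 3 of Fantasy love at 6 °C. The 4 calls at 4 °C became 7 with DESeq2's Wald test and 8 with only the compared groups in the fit. The cause of these shifts was not tested.

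With the replicate number as a block, breakdown calls in Oregon at 6 and 4 °C were 16 and 14, in Fantasy love 10 and 13, and for the cultivar differences 6 and 4, and SGR was 9.94, 8.48, 5.21 and 5.32 in the cold comparisons. Same-numbered libraries did not deviate together (r from -0.0659 to 0.104 over 18 pairs), so the numbers do not pair them. The block gave an adjusted p of 0.0524 for NYC1 DN46578_c1_g4 and 0.0537 for DN46675_c1_g5 in Oregon at 6 °C, and 0.054 for the CYP89A9 DN49840_c1_g10 difference at 6 °C. Of 5788 values of single genes and smaller lists under alternatives, 5518 were labelled the same, 120 lost a call, 124 gained one, 26 moved and 0 were labelled reversed. A list count within 1.5-fold was taken as the same. The label moved can hide a change of sign. SGR between 6 and 4 °C in Fantasy love went from -0.17 to 1.45 without replicate 3 at 6 °C and was labelled moved. Depth limits SGR in Oregon at 25 °C, where a library held as few as 7 counts.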
